A study of Mus musculus with 9 samples.

Results

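The array carried 4450 non-control probes whose names are genome positions in place of a gene or transcript, out of 56605 non-control probes in all. They were chosen by their systematic names, each of which starts with a chromosome and ends, for all but 1 probe, in F or R, read here as the forward or reverse strand. The 4450 probes covered 3230 ranges on 20 chromosomes, and 4062 combinations of a range and a strand. Of the ranges, 832 had probes for both strands, 1236 for F only and 1161 for R only. Range length had a median of 7204 bases and ran from 62 to 538251 bases. Positions are in the mouse build mm9, which the headers of all 9 scanner files name. Such names stand for intergenic noncoding RNAs on this array, but the files pair them with no gene, and whether a range lies outside known genes was not checked here. Total RNA came from whole lungs of male C57BL/6J mice that were 12 weeks old at the start. They had breathed fresh air, cigarette smoke (CS) at 3.5% or the aerosol of IQOS, a heated tobacco product, at 3.5%, for 6 months. Each group had 3 one-colour (Cy3) Agilent arrays, numbered here by replicate. Whether the arrays of a group are separate animals is not said in the labels, so a p-value weighs a difference against a spread that may be technical.

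Long intergenic noncoding RNAs are transcripts that lie between protein-coding genes and are not translated. Many are spliced and polyadenylated like messenger RNAs, but they are usually less abundant and more restricted to particular tissues and cell types. Some regulate the chromatin or transcription of nearby genes, some act elsewhere in the cell, and for most no function is known. A range can be transcribed from either strand or from both, and a probe reads the strand that it was designed against, so a pair of probes on opposite strands of 1 range reads different RNAs.

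Air and CS arrays shared 1 slide and the IQOS arrays filled another, so IQOS exposure and slide cannot be told apart in any comparison with IQOS. Position on the slide differed too, since row 2 held every CS array and air 3, and row 1 held air 1, air 2 and every IQOS array. Markers of lung epithelium (9 of 9) and endothelium (5 of 5) were well above background on all 9 arrays. The summed level of 7 matched neutrophil markers was between 183 and 229 in air, between 332 and 737 in CS and between 174 and 430 in IQOS, in units of each array's 75th percentile of signal. With CS, 4 of 8 alveolar macrophage markers and 4 of 4 genes of a smoke exposure list were higher than in air, and 1 of 7 B and plasma cell markers was lower (list median -1.17). None of 5 adipocyte markers was called with CS (list median -0.92), and none of 6 cardiac muscle markers (-0.46). With IQOS, 1 of 5 matched T cell markers was higher than in air, and their summed level was between 13.6 and 18.5, against 11.9 to 12.4 in air and 10.9 to 14.0 in CS. The part of these cell types in the results was not tested. In bulk lung, fewer cells of a type and less RNA per cell cannot be told apart. Precision is limited by there being 3 arrays per group.

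The share of position-named probes that was detected was below that of the other probes on each of the 9 arrays. A probe counts as detected where the scanner software marks its signal as well above background. The share detected was 52.1%, 57.1% and 55.9% on the air arrays, 54.1%, 54.8% and 55.1% on the CS arrays, and 55.5%, 59.6% and 59.6% on the IQOS arrays. The other non-control probes were detected at 65.3% to 69.6%. The air arrays had a mean ± SD of 55.0% ± 2.61, the CS arrays one of 54.7% ± 0.502 and the IQOS arrays one of 58.2% ± 2.33 (n = 3 each). Each IQOS array was above each CS array, with a difference of 3.56 percentage points and a two-sided exact permutation p of 0.1, the smallest that 3 arrays against 3 allow. Air overlapped with both exposures (exact permutation p = 0.9 for CS and 0.3 for IQOS). By the scanner's looser mark, positive and significant over background, IQOS exceeded CS by 1.53 points (exact permutation p = 0.4), so that ordering rests on the stricter mark. The IQOS mean of the other probes also exceeded the CS mean, by 1.62 points (exact permutation p = 0.2).

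Of the 4450 probes, 2105 were detected on all 9 arrays, 1370 on none and 975 on some. Probes of ranges under 1 kb were detected on all 9 arrays in 38.5% of cases, against 49.6% for ranges from 1 kb to under 10 kb and 49.8% for longer ones. The strands were close, with 45.9% of F probes and 48.7% of R probes detected on all 9 arrays. Tests were run on probes that all arrays of at least 1 group detected, which left 2445 probes, from 1954 ranges. Some of these passed only through the group where they are high. The number called in each comparison is therefore also given for the probes detected on all 9 arrays. Other counts of calls, by level, strand, length, pattern, pair or neighbourhood, are over the 2445 probes or parts of them. Levels are log2 of the signal relative to the array's 75th percentile, so 0 is a bright probe, and differences are in log2 units. Calls are adjusted p under 0.05 by limma with Benjamini-Hochberg adjustment over the 37258 probes tested on the array.

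With smoke, position-named probes differed from air in both directions, and the share called was below that of all probes. In CS against air, 89 were higher and 93 lower, together 182 of 2445 or 7.44%, beside 10.3% of all probes tested (4.63% higher and 5.68% lower). Of the 2105 detected throughout, 176 were called, or 8.36%, beside 11.4% of all probes passing that filter. The median difference was 0.03 over the tested position-named probes and -0.02 over all tested probes. Among the called ones 29 differed at least 2-fold. With array row as a covariate, a fit whose row term comes from air 3 against air 1 and air 2, the count was 13 (2 higher and 11 lower), and with no filter on dim probes it was 73. It was 21 without air 1, 88 without air 2, 73 without air 3, 42 without CS 2 and 93 without CS 3.

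The most raised probes with smoke included several that shared 1 profile over the arrays. The probe at chr5:44173484-44176009 on the F strand (A_30_P01029181) read -4.28, -4.01 and -4.03 in air, -2.82, -1.89 and -1.06 in CS and -2.77, -3.97 and -2.45 in IQOS. CS arrays were all above air, while IQOS 2 sat at the air level and the other two IQOS arrays were raised. Its difference from air was 2.18 ± 0.49 (SE, limma adjusted p = 0.0341). At chr1:134867906-134885481 on the R strand (A_30_P01028787) the levels were -0.20, -0.01 and 0.30 in air, 1.29, 1.83 and 2.25 in CS and 1.02, -0.20 and 1.07 in IQOS, a difference of 1.76 with smoke. The same order held at chr6:122725638-122752828 F (1.76), chr8:80581177-80621652 F (1.75), chr9:56910620-56919495 F (1.69), chr18:35967933-35986564 F (1.61), chr14:33975934-33998694 R (1.58) and chr3:151746091-151753763 R (1.33). The level at chr18:35967933-35986564 was among the bright ones, from 0.91 to 1.39 in air and from 2.21 to 3.23 in CS. Of 3 tested probes of that range and strand only this 1 was called, and the differences ran from -0.16 to 1.61.

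These 8 probes lie on 8 chromosomes, and the lowest correlation between any pair of them over the 9 arrays was 0.97. They form a set that was chosen after the values were seen, so the correlation is a description, and it carries what the 9 arrays share. In each of the 8, CS 1 was below CS 2 and CS 2 below CS 3, and IQOS 2 was below IQOS 1 and IQOS 3. The summed level of the neutrophil markers had that order too, with 332, 532 and 737 on CS 1, CS 2 and CS 3 and 430, 174 and 424 on IQOS 1, IQOS 2 and IQOS 3. Of the 7 neutrophil markers tested 1 was called higher with CS, and their median difference was 2.21. Their part in the result was not tested. The gene-named probes with the most similar profiles were, in order, those for Fezf1 (r = 0.998 with the mean of the set), Mcpt-ps1 (0.997), 4732465J04Rik (0.997), Nup155 (0.996), Tlr13 (0.996), Lpcat2 (0.996), Clec4d (0.995), Gm8884 (0.994), Cd300ld (0.994), Il1b (0.992), Cd33 (0.992) and Retnlg (0.991). Tlr13 is a receptor for bacterial RNA, Nup155 encodes a protein of the nuclear pore, Fezf1 a transcription factor of the developing brain, and Il1b an inflammatory cytokine. None of the 8 was called in IQOS against air (differences from 0.54 to 1.04). For the 7 of them that the naming rule picked, the differences between CS and air ran from 1.36 to 2.63 when 1 array was left out, and the adjusted p from 0.0141 to 0.118. Each of the 7 lost its call without air 1, air 2, air 3, CS 2 or CS 3, and with array row as a covariate.

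Other probes rose with smoke and stayed near the air level with IQOS. At chr5:35492530-35492959 R (A_30_P01020659), a range of 430 bases, air read -4.96, -5.0 and -4.94, CS -3.29, -4.06 and -2.31, and IQOS -4.88, -4.81 and -4.96. It was higher in CS than in air by 1.74 ± 0.36 and lower in IQOS than in CS by a log2 difference of -1.66 (limma adjusted p = 0.0268 and 0.0304). Air and IQOS arrays lay close together there, and the CS arrays were all above them. Without air 1 the adjusted p for CS against air was 0.0876. The probe at chr1:193875525-193978800 R (A_30_P01027122) was one of the brightest, at 4.71, 4.67 and 4.75 in air, 5.47, 5.73 and 5.62 in CS and 4.63, 4.86 and 4.95 in IQOS. It was lower in IQOS than in CS by -0.79 ± 0.10 (limma adjusted p = 0.00524). A second tested probe of this range and strand differed by 0.34 between CS and air and by -0.25 between IQOS and CS, and was not called. Of the tested position-named probes, 22 were both higher in CS than in air and lower in IQOS than in CS (0.9%, beside 2.15% of all probes tested), in 2 comparisons that share the CS arrays.

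The falls with smoke were spread over the levels. At a mean level of 0 or more 13 of 368 tested probes were lower (3.53%, beside 5.51% of the other probes). Between -1 and 0 it was 13 of 195 (6.67%, beside 6.66%), and between -5 and -4 it was 11 of 554 (1.99%, beside 4.13%). The named ones with the largest falls were dim. At chr14:14688472-14747272 R (A_30_P01027990), air read -3.29, -3.92 and -2.82, CS -4.79, -4.75 and -4.84, and IQOS -3.85, -3.43 and -3.15. The CS arrays were the lowest of the 9, and the difference from air was -1.45 ± 0.27 (limma adjusted p = 0.0195, and 0.0738 without air 1). IQOS exceeded CS there by 1.32. At chr5:52998788-53010250 R (A_30_P01024801) the levels were -5.0, -4.75 and -4.99 in air, -6.41, -6.36 and -6.04 in CS and -5.33, -5.15 and -5.59 in IQOS. No CS array was well above background there, so the fall is given as a bound, at least 1.24-fold lower (limma adjusted p = 0.00417). Bounds set the mean of the bright group against the mean of the lowest signal that counts as well above background on each dim array, or the probe's own signal where that is higher. A p given beside a bound comes from the fit to the measured signals, undetected ones included, and does not test the bound. A brighter case was chr8:122920901-123008463 F (A_30_P01021038), at 0.55, 0.30 and 0.57 in air, -0.80, -0.62 and -0.13 in CS and -0.45, -0.45 and 0.05 in IQOS. It fell by 0.99 with smoke (limma adjusted p = 0.0243).

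Most position-named probes that differed between IQOS and air were higher with IQOS. Against air, 187 were higher and 15 lower, together 202 of 2445 or 8.26%, beside 3.72% of all probes tested. The higher calls were 7.65% of the position-named probes, beside 2.74% of all, and the lower calls 0.613%, beside 0.98%. Of the 2105 detected throughout, 195 were higher and 17 lower, 10.1% in all, beside 4.47% of all probes passing that filter. The median difference was 0.11 over the tested position-named probes and 0.00 over all tested probes. Most calls were small, since 130 of the 187 that rose differed by under 1.5-fold and 10 reached 2-fold. The count was 59 (56 higher and 3 lower) with array row as a covariate, 110 with median centring, 66 with no filter and 71 with the air and IQOS arrays alone. It was 19 without air 1, 101 without air 2, 61 without air 3, 108 without CS 2, 116 without IQOS 1, 30 without IQOS 2 and 78 without IQOS 3.

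The share called higher with IQOS was largest in the brightest band. Of the 368 tested position-named probes whose mean level was 0 or more, 58 were higher in IQOS than in air (15.8%) and 1 was lower, beside 2.07% and 1.19% of the 13727 other probes at that level. Between -1 and 0 the shares higher were 13.3% and 2.44%, and between -5 and -4 they were 2.35% and 2.15%. In the dimmest band, under -5, they were 7.37% of 95 and 3.29% of 669, with median differences of 0.34 and 0.24. Levels there are near or under the lowest that counted as well above background, -5.66 to -5.15 over the arrays. Probes of this band can have been tested only through the group where they are high. The filter can thus shape these shares, and its part was not tested. Probes were split by their mean over all 9 arrays. As a description per array, the median deviation of the 2105 probes from their own 9-array means was -0.05, -0.02 and -0.08 on the air arrays, -0.01, -0.04 and -0.07 on the CS arrays and 0.04, 0.11 and 0.05 on the IQOS arrays. All 3 IQOS arrays were above all 6 others, with IQOS 2 the highest. The other probes detected throughout had medians between -0.02 and 0.02 on every array. No test was made of these medians. Shares were alike for F probes (7.70% higher) and R probes (7.60%), and for ranges under 1 kb (6.36%), from 1 kb to under 10 kb (6.49%) and longer (8.67%). On chromosome X 3 of 93 tested probes were higher, beside 184 of 2352 on the autosomes.

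A probe at chr6:140904129-140992655 F (A_30_P01025492) was well above background on the IQOS arrays alone. It read -7.34, -7.59 and -7.46 in air, -7.31, -6.60 and -7.44 in CS and -4.43, -3.87 and -4.09 in IQOS. IQOS was at least 2.29-fold higher than air and at least 2.13-fold higher than CS. The probe passed the filter through the IQOS arrays alone. Its limma adjusted p of 0.00171 and 0.00136 come from the measured signals, which in air and CS were not well above background, and do not test these bounds. The measured group means lay 3.33 apart between IQOS and air and 0.36 apart with normexp background correction.

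The clearest bright case was chr14:28231577-28242027 F (A_30_P01032266). Its levels were -1.68, -1.56 and -1.34 in air, -1.44, -1.48 and -1.56 in CS and 0.72, 1.16 and 0.70 in IQOS. Air and CS overlapped, and every IQOS array was far above them. IQOS exceeded air by 2.39 ± 0.14, or 5.24-fold, and CS by 2.35 ± 0.14 (limma adjusted p = 0.0009 and 0.000425). Over the 9 fits with 1 array left out, the difference from air ran from 2.24 to 2.48 and the adjusted p from 0.00427 to 0.0104.

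A further 4 probes kept their calls against air in every setting in which they were tested. At chr6:127588224-127609749 F (A_30_P01024980) air read -0.36, -0.49 and 0.02, CS -0.07, -0.19 and -0.08, and IQOS 1.03, 1.46 and 1.45. The rise over air was 1.59 ± 0.16. At chr15:86035939-86042539 F (A_30_P01024935) it was 1.23 ± 0.14, with 0.00, -0.07 and -0.10 in air and 0.87, 1.41 and 1.24 in IQOS. At chr3:86827945-86886695 R (A_30_P01022760), air read -4.94, -5.53 and -5.12, CS -4.19, -4.22 and -4.43, and IQOS -3.79, -3.08 and -3.77. Here CS lay between the other groups and overlapped with neither, and the rise of IQOS over air was 1.65 ± 0.22 (limma adjusted p = 0.0128). On air 2 this probe was under the lowest level that counted as well above background, -5.45. It was therefore not tested in the setting that asks for detection on all arrays. The last of these was A_30_P01020019 at chr11:112898724-113062945 R, higher by 1.1 ± 0.12.

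The 15 probes that fell with IQOS differed from air by less than 2-fold. At chr4:82156098-82196298 R (A_30_P01030421) air read -1.33, -1.37 and -1.31, CS -2.14, -2.17 and -2.37, and IQOS -2.14, -2.24 and -2.07. Both exposed groups were below air and overlapped with each other. The differences were -0.81 ± 0.08 for IQOS and -0.89 ± 0.08 for CS (limma adjusted p = 0.00546 and 0.00278). At chr18:61809278-61825191 R (A_30_P01018499), a bright probe, air read 1.93, 1.77 and 1.86, CS 1.45, 1.37 and 1.40, and IQOS 1.31, 1.21 and 1.22. It was lower by -0.60 ± 0.06 with IQOS and by -0.44 with CS. In all, 30 position-named probes (1.23%, beside 0.929% of all probes tested) were called in both comparisons with air, which share the air arrays.

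The comparison of IQOS with CS gave the most calls of the 3, an order that did not hold in every setting. In IQOS against CS, 246 were higher and 42 lower, together 288 of 2445 or 11.8%, beside 9.64% of all probes tested. Of the 2105 detected throughout, 281 were called (13.3%), beside 10.5% of all probes passing that filter. The higher share was 10.1% beside 5.71% of all, and the lower share 1.72% beside 3.93%. Higher calls were 85.4% of the 288, and 72.9% with normexp background correction (226 higher and 84 lower). At a mean level of 0 or more 63 of 368 were higher (17.1%), beside 4.28% of the other probes. The count was 10 with array row as a covariate, which cannot compare IQOS and CS within a row, 147 with no filter and 165 with the CS and IQOS arrays alone. It was 181 without air 1, 112 without CS 2, 145 without CS 3, 148 without IQOS 1, 103 without IQOS 2 and 167 without IQOS 3. CS against air gave more calls than IQOS against CS at 2-fold (29 and 23), with array row (13 and 10), without IQOS 1 (162 and 148) and without IQOS 2 (145 and 103), and IQOS against air gave more with array row (59) and without CS 3 (158 and 145).

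Of the 246, 126 were also higher in IQOS than in air, which is 5.15% of the tested position-named probes beside 1.74% of all probes tested. A further pattern, higher in IQOS than in CS and lower in CS than in air, was met by 26 (1.06%, beside 1.64%). The comparisons share arrays. The probe at chrX:150159252-150181275 F (A_30_P01029321) was of the second kind, at -3.43, -3.21 and -3.54 in air, -3.88, -4.30 and -3.98 in CS and -2.92, -2.76 and -3.03 in IQOS. The 3 groups did not overlap there, and IQOS exceeded CS by 1.15 ± 0.13 (limma adjusted p = 0.00414). At chr8:60132300-60146830 F (A_30_P01024453) the order was the same, with -1.80, -1.82 and -2.0 in air, -2.12, -2.41 and -2.58 in CS and -1.17, -1.20 and -1.44 in IQOS, a difference of 1.1 ± 0.13 between IQOS and CS. This probe was of the first kind, since it was called higher in IQOS than in air (limma adjusted p = 0.048). CS against air was not called there (limma adjusted p = 0.0505). Lower in IQOS than in CS was chr1:152001112-152012796 R (A_30_P01020139), at -3.78, -3.41 and -3.36 in air, -2.04, -1.97 and -2.44 in CS and -3.39, -3.12 and -3.55 in IQOS. IQOS overlapped with air and fell below CS by 1.20 (limma adjusted p = 0.00825).

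Detection on all arrays of 1 group and none of another was most often found for IQOS. Well above background on all IQOS arrays and on no air array were 36 probes (1.47% of those tested, beside 0.55% of all probes tested), of which 7 were called. In the opposite direction there was 1 probe (0.0409%, beside 0.0322% of all). Between IQOS and CS there were 47 probes for IQOS (1.92%, beside 0.958%), of which 7 were called. For CS there were 2 (0.0818%, beside 0.0966%), none of them called. The lowest level that counted as well above background was -5.28, -5.57 and -5.66 on the IQOS arrays and between -5.45 and -5.15 on the air and CS arrays, so it was lower on IQOS 2 and IQOS 3 than on any other array, and its part in these numbers was not tested. Between CS and air the numbers were 5 (0.204%, beside 0.234%; 4 called) for CS and 12 (0.491%, beside 0.335%; 5 called) for air. The largest bound between CS and air was at chr14:65720392-65769859 R (A_30_P01020444), with -4.25, -4.27 and -4.05 in air, -5.10, -5.76 and -5.28 in CS and -4.70, -5.10 and -5.01 in IQOS. Air was at least 2.02-fold higher than CS there (limma adjusted p = 0.0106 for the measured signals). In the other direction, chr8:126396600-126407275 R (A_30_P01024600) read -6.56, -5.86 and -5.78 in air, -4.50, -4.07 and -4.64 in CS and -4.86, -5.30 and -4.65 in IQOS. CS was at least 1.90-fold higher than air (limma adjusted p = 0.0116 for the measured signals). The largest bound of all, at least 3.45-fold for CS over IQOS at chr7:105964846-105965163 F (A_30_P01022530), was not called (adjusted p = 0.0769), and its CS arrays spread from -4.49 to -2.30.

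Opposite strands of 1 range were seldom both called. Of the 832 ranges with both strands on the array, 330 had both strands tested, 363 had 1 (143 F and 220 R) and 139 had none. In CS against air, 2 of the 330 pairs had both strands called, in the same direction, and 44 had 1 strand called. In IQOS against air the numbers were 4 in the same direction and 56 with 1 strand. In IQOS against CS they were 6 in the same direction, 1 in opposite directions and 84 with 1 strand. The 2 strands differed in the same direction, called or not, in 173, 204 and 209 of the 330 pairs in these comparisons. The median difference of the tested position-named probes was 0.03, 0.11 and 0.10. With IQOS, unrelated strands would thus share a direction more often than not, and this agreement was not tested. Single position-named probes were called in 7.44%, 8.26% and 11.8% of cases in these comparisons, so joint calls would be few even between unrelated strands. Over the 9 arrays the correlation between opposite strands had a median of 0.19 over 389 probe pairs, beside 0.07 for pairs on different chromosomes.

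At chr5:112205091-112240992 both strands rose with IQOS. The F probe (A_30_P01032660) read 1.39, 1.38 and 1.46 in air, 1.54, 1.62 and 1.48 in CS and 2.03, 2.15 and 2.05 in IQOS. The R probe (A_30_P01030304) read -1.75, -1.67 and -1.59 in air, -1.34, -1.38 and -1.46 in CS and -1.12, -0.78 and -1.0 in IQOS. Groups were in the order air, CS, IQOS on both strands, with no overlap, and IQOS exceeded air by 0.67 ± 0.06 on F and 0.70 ± 0.09 on R (limma adjusted p = 0.00543 and 0.0133). Without air 1 the adjusted p on R was 0.0674. The same pattern of calls on both strands, higher than air and higher than CS, was found at chr15:10363330-10371830 (0.53 and 0.51 over air on F and R), chr16:29942664-29948289 (0.50 and 0.44) and chr8:91569369-91594119 (0.44 and 0.65). A second R probe was tested and not called in each of the last 2 ranges. At chr16:29942664-29948289 it (A_30_P01032497) differed by 0.15 from air and by -0.21 from CS (limma adjusted p = 0.673 and 0.492), and at chr8:91569369-91594119 it (A_30_P01019280) differed by 0.10 from air (adjusted p = 0.722).

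At chr14:28231577-28242027, where the F probe rose by 2.39 with IQOS, the opposite strand did not rise. Its R probe (A_30_P01021426) read -2.61, -2.72 and -2.81 in air, -2.60, -3.16 and -2.94 in CS and -3.14, -3.07 and -3.19 in IQOS, a difference from air of -0.42 ± 0.13 that was not called (limma adjusted p = 0.127). The 1 pair with opposite calls was chr8:126268510-126290810 in IQOS against CS. There the F probe (A_30_P01028886) read -2.51, -2.25 and -2.45 in CS and -1.78, -1.85 and -1.78 in IQOS, a rise of 0.60 ± 0.11 (limma adjusted p = 0.0187). The R probe (A_30_P01022780) read -4.38, -4.39 and -4.37 in CS and -5.24, -5.06 and -5.14 in IQOS, a difference of -0.77 ± 0.14 (limma adjusted p = 0.0172, and 0.0578 without IQOS 1). In air F read -1.92, -2.21 and -2.31 and R read -5.51, -4.91 and -5.30, so R was raised with smoke (0.86, limma adjusted p = 0.0131) and F was not called against air in either exposure. On air 1 the R probe was under the lowest level that counted as well above background there, -5.20. A second F probe of the range (A_30_P01027401) differed by 0.07 between IQOS and CS and was not called (limma adjusted p = 0.775), so the contrast rests on 1 of 2 F probes. At chr8:48476637-48492537 the F probe (A_30_P01032305), at 3.89, 3.97 and 3.97 in air and 4.62, 4.49 and 4.52 in CS, rose by 0.60 with smoke, while its R partner differed by -0.11 (adjusted p = 0.733).

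Probes of the same range and strand were seldom all called. Of 140 names with at least 2 tested probes, 2 had all probes called in 1 direction in CS against air and 24 had some called. In IQOS against air 19 had some called, and in no name were all called. In IQOS against CS 25 had some called in 1 direction, and 1 name had probes called in opposite directions. That name was chr11:112898724-113062945 R, a range of 164222 bases with 3 tested probes. Its probe A_30_P01020019 read -1.13, -1.27 and -1.08 in air, -0.94, -0.88 and -0.87 in CS and -0.34, 0.00 and 0.16 in IQOS. Its probe A_30_P01032673 read -4.69, -4.75 and -4.83 in air, -3.52, -2.86 and -3.91 in CS and -4.51, -4.68 and -4.63 in IQOS. The first was high in IQOS and the second in CS, with differences of 0.84 ± 0.12 and -1.18 ± 0.23 between IQOS and CS (limma adjusted p = 0.00864 and 0.0212). The third (A_30_P01026259) was not called in any comparison. The 2 names with all probes called, both higher with smoke, were chr4:146507925-146532650 R (0.34 and 0.39) and chr8:27912000-27992750 F (0.33 and 0.35).

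Nearby ranges were grouped into neighbourhoods where the gap between tested ranges was at most 50000 bases, which gave 454 neighbourhoods holding 1193 of the 1954 tested ranges. At least 2 ranges were called in 17 neighbourhoods in CS against air, all in 1 direction in 15 of them. In IQOS against air there were 7, of which 4 were in 1 direction, and in IQOS against CS 18, of which 17 were. Exactly 1 range was called in 73, 79 and 111 neighbourhoods in these comparisons. Single ranges were called in 176, 198 and 279 of the 1954 tested. Some neighbourhoods would thus hold 2 called ranges even if their ranges were unrelated, and whether these counts exceed that was not tested. Of all position-named calls, 48.9% were higher in CS against air, 92.6% in IQOS against air and 85.4% in IQOS against CS. In the comparisons with IQOS most called ranges would thus share a direction even if unrelated, and agreement in direction was not tested. Many ranges of a neighbourhood overlap or nest, so their probes can read the same RNA. Summed over the 3 comparisons, 42 neighbourhoods had at least 2 called ranges, where a neighbourhood can count in more than 1. The sum was 33 with gaps of at most 10000 bases and 62 with gaps of at most 200000 bases.

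At chr5:111538420-111652286, 3 of 4 tested ranges, all on the F strand, fell with smoke. The probe at chr5:111565658-111566257 (A_30_P01021193) read 0.55, 0.32 and 0.26 in air, -0.27, -0.23 and 0.01 in CS and 0.09, 0.30 and 0.37 in IQOS, a difference of -0.54 ± 0.12 (limma adjusted p = 0.0299). The other called ranges there differed by -0.43 each, and the fourth by -0.09 (adjusted p = 0.789). All 3 calls were lost without air 1, air 2, air 3, CS 1 or CS 2. Close to each other on chromosome 8, chr8:91471819-91551119 F (A_30_P01032185) and probes on both strands of chr8:91569369-91594119 were higher with IQOS. The first read -0.99, -0.95 and -0.96 in air, -0.86, -0.99 and -1.05 in CS and -0.43, -0.43 and -0.48 in IQOS, a rise over air of 0.52 ± 0.06 (limma adjusted p = 0.01).

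Neighbours also parted. At chr2:75444518-75497268 the R probe of the whole range (A_30_P01031281) read -4.61, -4.44 and -4.48 in air, -5.28, -5.39 and -5.35 in CS and -4.90, -5.26 and -5.14 in IQOS. It was lower in both exposures, by -0.83 ± 0.10 in CS (at least 1.64-fold) and -0.59 ± 0.10 in IQOS. A range of 564 bases nested in it on the same strand, chr2:75481116-75481679 (A_30_P01022140), read -0.22, -0.27 and -0.33 in air, -0.20, -0.19 and -0.11 in CS and 0.07, 0.41 and 0.27 in IQOS, and rose over air by 0.52 ± 0.09 (limma adjusted p = 0.025). At chr18:61781410-61825191 3 ranges were higher in IQOS than in CS, among them chr18:61788148-61788307 R (A_30_P01023506, 1.01 ± 0.19), while the bright chr18:61809278-61825191 R was lower in both exposures than in air. In the neighbourhood at chr19:5771425-5848475, chosen after its values were seen, the R probe at chr19:5834117-5835940 (A_30_P01019037) read 2.67, 3.30 and 2.64 in air, 3.98, 4.25 and 3.90 in CS and 3.60, 4.09 and 3.25 in IQOS. It rose with smoke by 1.17 ± 0.25 (limma adjusted p = 0.0271), while the R probe at chr19:5798135-5800557 (A_30_P01020935), from 4.50 to 4.69 in air, differed by -0.08 (adjusted p = 0.526).

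Correlations over the 9 arrays were highest, by their median, between probes of the same range and strand. The median correlation was 0.46 over 178 probe pairs of 1 range and strand, 0.22 over 1838 pairs from 1 neighbourhood and 0.19 over 389 pairs on opposite strands. Pairs on different chromosomes had a median of 0.07. Within a neighbourhood it was 0.31 for pairs with the same strand letter and 0.13 for opposite letters. With group means taken out, the medians were 0.41, 0.17, 0.14 and 0.03 in the order of the first 4. These are descriptions over 9 arrays that share groups, slides and libraries, and dim probes carry more noise.

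Between the probes whose level varied with an SD over 0.35, 7 sets of at least 3 were linked by correlations of 0.98 or more, a threshold chosen after the data were seen. Besides the 8 probes on 8 chromosomes, a set of 6 on 6 chromosomes was high on all IQOS arrays and holds A_30_P01025492 and A_30_P01032266, with A_30_P01024935, A_30_P01021357, A_30_P01024460 and A_30_P01024589. All of its members were called higher in IQOS than in air, by 0.76 to 2.39 for the 5 detected in air, with the bound given above for A_30_P01025492, and IQOS 2 was the highest IQOS array for each. A set of 5 R probes between chr3:30032959 and chr3:30101280 was steady over the air and IQOS arrays and varied among the CS arrays. Its probe at chr3:30077338-30080281 (A_30_P01017707) read 1.13, 1.02 and 0.92 in air, 1.32, -0.05 and 0.15 in CS and 0.92, 0.93 and 0.97 in IQOS. CS 2 and CS 3 were the lowest of the 9 arrays and CS 1 the highest for all 5, and none was called in a comparison.

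Further sets held arrays apart within groups. A set of 3 probes on chromosomes 11, 17 and 18 was raised on CS 1 alone, such as chr17:6817346-6819981 F (A_30_P01031795) at -2.51 on CS 1 and between -5.29 and -4.59 on the other 8 arrays. Another of 3, at chr5:14943275-14944205 F (A_30_P01019442), chr5:15146475-15170100 F and chr18:3003075-3016150 R, had its highest levels on CS 1 and IQOS 1 (0.06 and 0.81 for the first of these, against -2.29 to -0.72 elsewhere). Large differences were not always called. The probe at chr9:78107225-78118850 F (A_30_P01018914), picked after its values were seen, read 2.15, -0.64 and 2.68 in air, 0.19, 1.42 and 1.45 in CS and -3.13, -2.27 and -1.01 in IQOS. All IQOS arrays were below the other 6, and the difference of -3.53 ± 0.90 from air had a limma adjusted p of 0.0731.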

How the data were processed

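Total RNA of 9 lung samples was hybridised to Agilent one-colour arrays, and per the file headers the deposited intensity values are the processed signals of Feature Extraction 10.7.1.1. The deposited flag columns mark spots well above background, positive and significant, or outlying. Set against the scanner values, the authors' value table holds signals as a linear ratio to each array's 75th percentile, and it was used as an alternative. Here log2 of the signal minus each array's 75th percentile was taken, outlier spots were left out, and spots of 1 probe were averaged. All 9 arrays were fitted with limma 3.58.1 in R 4.3.3, with Benjamini-Hochberg adjustment over 37258 probes and a threshold of 0.05.

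Members and lists were chosen with earlier results of these data known. For naming, each range and strand was represented by its brightest tested probe. Named were up to 10 called probes with the largest differences in each direction and comparison, and strand pairs and neighbourhoods with calls by smallest p. Probes detected on all arrays of 1 group and on none of another were named by largest bound. Others named in the text were chosen after their values were seen. On simulated data of 37258 probes, 1.5-fold changes were recovered in 40.3% of cases for CS against air, 47.8% for IQOS against air and 50.7% for IQOS against CS, and 2-fold changes in 82.1%, 82.1% and 86.6%. At each of these folds 67 probes were changed, drawn from all tested probes, with independent noise and no slide or row effect. False calls numbered 15, 7 and 15. The median SE was 0.13 over position-named probes and 0.11 over all tested, so these shares are not those of the position-named probes. Alternatives were normexp, quantile normalization, no filter, detection on all 9 arrays, the authors' table, a replicate block, array row, only the arrays compared, a 2-fold minimum and each array left out. Median centring and correlation thresholds of 0.97 and 0.99 were added after seeing the data. Same-numbered arrays of different groups had correlated deviations between -0.08 and 0.20, so the numbers were not taken to pair the arrays.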

Additional observations from a re-analysis of the deposited data

How the results depend on the processing

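Called position-named probes are given for CS against air, IQOS against air and IQOS against CS, in this order. They numbered 182, 202 and 288, and 73, 66 and 147 with no filter, 13, 59 and 10 with array row as a covariate, and 29, 10 and 23 at 2-fold. Median centring gave 110 for IQOS against air, and only the arrays compared gave 71 for it and 165 for IQOS against CS. With the replicate number as a block, though the numbers do not pair the arrays, they were 161, 93 and 229, and an array correlated best with its own number in 10 of 18 cases. Summed over the 3 comparisons, where a pair, name or neighbourhood can count in more than 1, there were 12 strand pairs called on both strands in 1 direction, 42 neighbourhoods with at least 2 called ranges, and 71 names with a called probe among the 140 with at least 2 tested. Strand pairs were 3 with no filter, 7 with the block, 2 with array row, 4 with only the arrays compared, 0 at 2-fold and 7 with median centring. Names were 4 with array row, 40 with only the arrays compared and 7 at 2-fold. Neighbourhoods were 8 with no filter, 22 with the block, 0 with array row, 21 with only the arrays compared, 0 at 2-fold and 23 with median centring. Sets numbered 3 at a correlation of 0.99.

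Leaving out 1 array gave 21 to 166 calls for CS against air, 19 to 167 for IQOS against air and 103 to 250 for IQOS against CS. It gave 2 to 9 strand pairs, 21 to 67 names and 4 to 23 neighbourhoods. Cases of a probe detected on all arrays of 1 group and on none of another, with a bound over 1, numbered 120 to 171. They are summed over comparisons and directions, so a probe can count more than once. A group with an array left out meets this rule more easily, so this range cannot be set beside the counts over all 9 arrays. The detected share differed by -1.84 to 0.654 points, 1.72 to 4.53 points and 2.88 to 4.91 points. For CS against air it turned to 0.784 by the looser mark, 0.654 without air 2 and 0.07 without air 3.

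Values that changed sign were never called. A_30_P01020895 in CS against air went from -0.03 to 0.0506 with normexp, 1.30 in the authors' table, 0.0364 with the block and 0.21 with array row, and to 0.0618 without air 2. A_30_P01032270 in IQOS against CS went to -1.03 in the authors' table. With 1 array left out, A_30_P01026443 in IQOS against air ran from -0.0696 to 0.131, A_30_P01022148 in CS against air from -0.322 to 0.0178, and A_30_P01020420 in IQOS against air from -0.15 to 0.354. The cause was not tested. Of 115 called values of named probes, 8 kept their call in every setting in which the probe was tested and 18 with array row.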
